A study of Mus musculus with 20 samples.

Results

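Embryonic epidermis without p63 was compared with heterozygous epidermis of the same age, embryonic day 13 (E13), in RNA-seq libraries of sorted mouse back skin cells. The comparison rests on 6 of the 12 RNA libraries of the study, which holds 20 samples in all with its chromatin libraries. The 6 were taken by their labels: 3 libraries of the genotype {delta}Np63 -GFP KI-KO, called KO 1 to KO 3 here, and 3 of the genotype {delta}Np63 -GFP KI-Het, called Het 1 to Het 3, all from E13 epidermis. Both genotypes carry a GFP knock-in at the delta-N unit of Trp63, in 1 copy in Het and with no intact delta-N copy left in KO as the genotype names read, and no library here comes from an embryo without the knock-in. Collagenase and trypsin were used to dissociate back skin, from which GFP-positive cells were sorted, so the KO cells are those that still used the delta-N promoter. Total RNA was depleted of ribosomal RNA, and SMARTer and NEBNext directional kits are named for the libraries. The labels do not say that replicates came from separate embryos, so p-values measure only the spread between these samples, which may be technical. All 23432 gene symbols of the count files entered, and 13052 passed the filter on low counts and were tested.

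p63 is a transcription factor of the p53 family, and its delta-N form is the main product of the gene in stratified epithelia. It marks the commitment of surface ectoderm to epidermis, where it is known for controlling basal keratins, adhesion to the basement membrane, cell junctions and proliferation. Mice that lack the gene form no stratified epidermis and have defects of the limbs and face. Het epidermis at E9 (3 libraries of the same knock-in genotype), skin before stratification, was in the same model fit and its levels are given where they help to place a value.

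The sequences just upstream of the start are shown for 3 genes that fell and 2 that rose. p63 binds a pair of C-N-N-G boxes, each written CNNG, so pairs of CNNG with 6 bases between them were searched, and also the narrower CATG pair with 6 bases between, the p53-family response element core, the AP-1 letters TGAGTCA and the AP-2 letters GCCNNNGGC, on both strands. Each line gives the 250 bases before the annotated start of the gene, 5′ to 3′ on the gene's strand, from RefSeq with build GRCm38.p6. The Krt5 window is chr15:101712906-101713155 on the minus strand and the Col17a1 window is chr19:47692043-47692292 on the minus strand. Fermt1, whose product is an integrin activator, has the window chr2:132946037-132946286 on the minus strand. Of the genes that rose, Sema3c, a secreted semaphorin, has the window chr5:17574566-17574815 and Epcam, an adhesion molecule of simple epithelia, chr17:87635729-87635978, both on the plus strand. No upstream window of Sema3a, the gene with the smallest p, is shown, since the table's window for it precedes a transcript start inside the gene. Capitals mark the fixed letters of the CNNG pairs and the whole AP-2 match.
Krt5: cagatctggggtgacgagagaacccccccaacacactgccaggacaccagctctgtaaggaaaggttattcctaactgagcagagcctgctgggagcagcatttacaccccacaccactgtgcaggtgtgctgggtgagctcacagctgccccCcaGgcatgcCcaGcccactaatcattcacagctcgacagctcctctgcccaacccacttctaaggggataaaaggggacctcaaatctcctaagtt
Col17a1: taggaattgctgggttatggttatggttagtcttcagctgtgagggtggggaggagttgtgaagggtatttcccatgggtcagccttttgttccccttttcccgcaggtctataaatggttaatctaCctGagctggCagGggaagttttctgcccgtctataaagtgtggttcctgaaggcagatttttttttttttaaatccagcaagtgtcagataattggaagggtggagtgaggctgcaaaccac
Fermt1: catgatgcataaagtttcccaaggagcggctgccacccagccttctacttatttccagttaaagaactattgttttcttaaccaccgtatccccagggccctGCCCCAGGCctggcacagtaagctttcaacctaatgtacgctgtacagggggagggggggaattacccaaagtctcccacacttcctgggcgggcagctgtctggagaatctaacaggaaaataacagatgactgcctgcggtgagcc
Sema3c: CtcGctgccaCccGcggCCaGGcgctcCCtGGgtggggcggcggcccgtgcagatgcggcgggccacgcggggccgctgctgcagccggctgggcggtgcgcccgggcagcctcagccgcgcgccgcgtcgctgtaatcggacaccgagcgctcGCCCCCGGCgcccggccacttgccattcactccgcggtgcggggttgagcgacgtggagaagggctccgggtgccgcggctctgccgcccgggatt
Epcam: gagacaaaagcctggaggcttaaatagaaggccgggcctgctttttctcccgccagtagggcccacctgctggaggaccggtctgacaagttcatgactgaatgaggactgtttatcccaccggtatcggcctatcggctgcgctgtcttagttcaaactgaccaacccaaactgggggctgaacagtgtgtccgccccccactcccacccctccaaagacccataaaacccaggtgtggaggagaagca

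The CNNG pair lies at -97 to -84 in the Krt5 window and at -123 to -110 in the Col17a1 window, and the AP-2 match at -148 to -140 in the Fermt1 window, with -1 the last base before the start. In the Sema3c window CNNG pairs lie at -250 to -237, at -233 to -220 and, overlapping the one before it, at -232 to -219, and an AP-2 match at -96 to -88. None of the searched letters occurs in the Epcam window, which says only that they are not in these 250 bases. A CNNG pair is a loose pattern: it occurred in 63.5% of all 32851 windows of this length in the RefSeq table and in 78.7% of the 13167 windows of tested genes. Among called genes it occurred in 144 of 190 windows of genes that fell in KO (75.8%) and in 95 of 115 windows of genes that rose (82.6%). The CATG pair occurred in 0 of the 190 and 0 of the 115 windows and in 0.235% of tested windows. The p53-family core occurred in 3.68% of windows of genes that fell, 1.74% of genes that rose and 4.21% of tested windows. For AP-1 the shares were 3.68%, 4.35% and 2.99%, and for AP-2 26.3%, 26.1% and 20.8%. A gene can have several windows, some of them before starts inside the gene. The windows are promoters only, and a match is a run of letters, not a binding site.

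Trp63 itself was read first. Levels are given in CPM, counts scaled to a library total of 1000000 after TMM normalization. Trp63 stood at 574, 654 and 493 CPM in Het and 24.7, 26.6 and 22.5 in KO, and at 223 ± 85.7 CPM (SD, n = 3) in E9 Het epidermis. Every KO library was far below every Het library, and the 3 KO libraries lay close together. The log2 fold change, KO minus Het, was -4.54 ± 0.28 (standard error), with an adjusted p of 1.5e-06. Here and below, the adjusted p is the Benjamini-Hochberg value of edgeR's quasi-likelihood test over all genes tested, and a gene is said to have risen or fallen where it is under 0.05. The change and its standard error stand before that p in each parenthesis. The counts pool the isoforms of both Trp63 promoters, so what is left in KO is not resolved by isoform.

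The gene counts of the 6 libraries ran from 3373819 (KO 3) to 7777808 (Het 2), and genes with at least 1 count from 10765 (Het 1) and 11275 (KO 3) to 16200 (KO 2). The general epithelial genes Cdh1 and Esrp1 were counted in both groups: Cdh1, which encodes E-cadherin, was at 831, 603 and 859 CPM in Het and 914, 755 and 731 in KO, and Esrp1, an epithelial splicing factor, at 209, 276 and 357 CPM in Het and 350.0, 311 and 322 in KO. Neither passed the test (Cdh1 0.07 ± 0.15, adjusted p = 0.94; Esrp1 0.22 ± 0.18, adjusted p = 0.75). Of 12 defining genes of epidermis, Trp63 among them, 7 fell (4 to 6 in the refits without 1 library) and 1 rose, with a median log2 fold change of -1.58. Their summed level was 6801 to 8245 CPM in Het and 2563 to 3333 CPM in KO, none was at 0 in Het, and Col17a1 was at or near 0 in KO. Het 3 stood apart from the other Het libraries in some genes, among them the periderm gene Gabrp (331, 204 and 1547 CPM in Het 1 to Het 3 and 1044, 516 and 937 CPM in KO), Krt8 (74.7, 23.3 and 680.4 and 1131, 716 and 906 CPM) and Krt18 (32.5, 27.9 and 447 and 971, 694 and 816 CPM). Several results that rest on it are given with and without it. In sorted cell populations such as these, fewer cells of a type and less RNA per cell cannot be told apart.

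At E13, 287 of the 13052 genes tested (2.20%) differed between KO and Het epidermis, 109 higher in KO (0.835%) and 178 lower (1.36%). The genes that fell had a median log2 fold change of -1.59 and those that rose of 1.39, while the median over all genes tested was 0.03. Of the 287 genes, 229 differed at least 2-fold and 46 at least 8-fold, of which 34 fell and 12 rose. All 287 had 3 KO libraries on 1 side of the 3 Het libraries, a pattern that 10.3% of all genes tested showed with KO above and 9.78% with KO below. Of the 287, 137 passed whichever 1 of the 6 libraries was left out, 90 that fell and 47 that rose, and 8 passed in none of these 6 refits. Genes named below without a remark are among the 137, and for the others the libraries whose removal ended the call are given with the highest p of those refits. Without Het 3, 170 genes fell and 178 rose, so that lower genes no longer outnumbered higher ones. Without KO 1 the count was 182. For 39 of the 287 the fitted fold moved by over 1.5 times without 1 library, in each of the 39 toward a larger change in some refit, and these are marked where named. Of the 287, 44 overlap another annotated gene, and a part of their counts may belong to the other gene, as no source used here gives the counting's strand setting. Among those named below these are Itgb4 (with Galk1), Dst (with Bend6), Mest (with Copg2), Epha1 (with Zyx), Pltp (with Ctsa), Grin3a (with Ppp3r2), and Tln2, Slit2, Trps1, Col7a1, Boc, Sema6d, Glis3, Chst15, Ccnd2 and Kcnt2 (with microRNA, long noncoding or predicted genes). Sv2b and Tmem132c also overlap another gene, as is said where they are named.

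**Figure D1:**
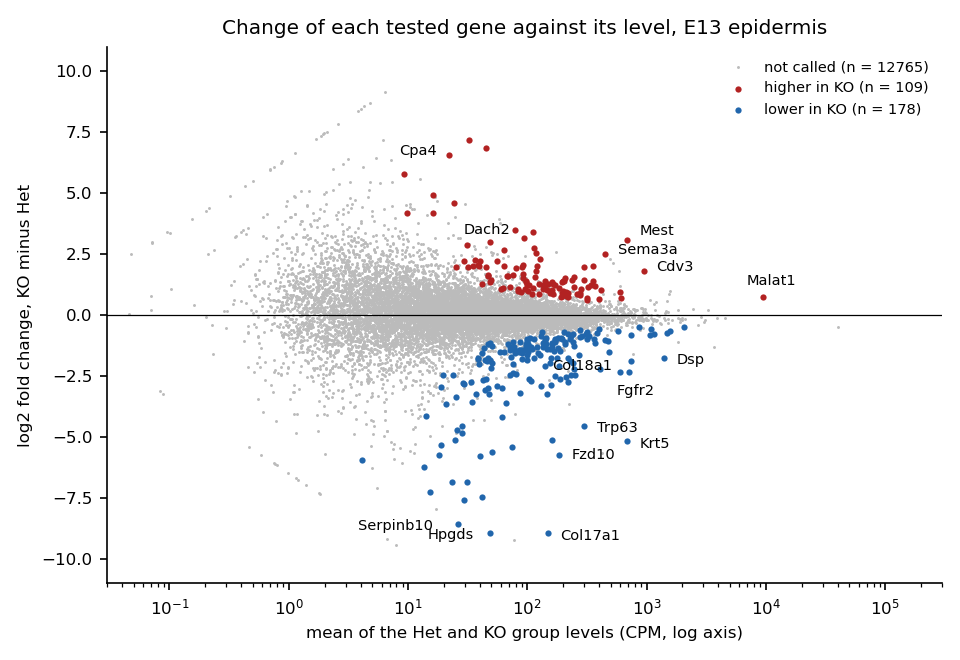
Each point is 1 of the 13052 genes tested, with the mean of the Het and KO group levels in CPM on a log axis and the log2 fold change (KO minus Het) on the vertical axis; red points are the 109 genes that rose, blue the 178 that fell and grey the rest. Trp63, Krt5, Fzd10 and Col17a1 lie far below 0 and Mest and Sema3a far above it.

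Of 11 tested genes of basal keratins and hemidesmosomes, which attach basal cells to the tissue beneath them, 6 fell in KO and none rose. Krt5, the basal layer keratin, was at 1428, 1104 and 1470.1 CPM in Het and 47.4, 20.7 and 43.5 in KO. All 3 KO libraries were far below the lowest Het library, a 36-fold fall by the fit (-5.17 ± 0.33, adjusted p = 9.4e-06), and the E9 level was 40.8 ± 10.7 CPM. Col17a1, a transmembrane collagen of the hemidesmosome, was at 321, 345 and 224 CPM in Het and 0, 1.43 and 0 in KO. It was not counted in 2 of the 3 KO libraries and the groups were far apart (-8.94 ± 1.08, adjusted p = 0.0042; -8.33 without KO 1 and -13.62 without KO 2).

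Itgb4, the integrin beta subunit that is found in hemidesmosomes, was at 486, 397 and 298 CPM in Het and 81.4, 61.1 and 74.8 in KO, and the groups did not overlap (-2.44 ± 0.22, adjusted p = 2.3e-05). Dst, whose epithelial form links keratins to the hemidesmosome, was at 1061, 1389 and 1100.2 CPM in Het and 204, 315 and 196 in KO, again with every KO library lowest (-2.31 ± 0.19, adjusted p = 1.0e-05). The alpha subunits moved less: Itga3 fell from 297 ± 31.3 to 164 ± 39 CPM and Itga6, the partner of Itgb4, from 302 ± 74.9 to 156 ± 35 CPM. The call of Itga3 was lost without Het 1 or KO 2 (adjusted p up to 0.07), and that of Itga6 without Het 1, KO 2 or KO 3 (adjusted p up to 0.11).

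The median log2 fold change of these 11 genes was -2.31, against 0.03 over all genes. In the refits without 1 library 4 to 6 of them fell. Krt14, the keratin partner of Krt5, was at 1044, 877 and 569 CPM in Het and 39.97, 6.99 and 1.14 in KO, with no overlap between groups but a wide spread among the KO libraries (-5.64 ± 1.32, adjusted p = 0.12). The other members that did not pass include Plec, the plectin gene, at 661 ± 148 CPM in Het and 431 ± 69.2 CPM in KO (-0.62 ± 0.17, adjusted p = 0.088) and Itgb1, at 352 ± 88.1 CPM in Het and 458 ± 34.6 CPM in KO (0.38 ± 0.17, adjusted p = 0.41).

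Integrin activation and matrix genes showed the same direction in some of their members. Fermt1, the epithelial kindlin that activates integrins, was at 196, 189 and 152 CPM in Het and 30.9, 30.4 and 25.3 in KO. The KO values sat within a narrow band 6.17-fold below Het by the fit (-2.63 ± 0.21, adjusted p = 7.5e-06), and below the E9 level of 155 ± 27.6 CPM too. Tln2, 1 of the talin genes that work with kindlins, differed in the other direction, at 201, 182 and 165 CPM in Het and 378, 401 and 378 in KO (1.08 ± 0.15, adjusted p = 0.0011), while Tln1 was at 394 ± 15.8 CPM in Het and 337 ± 3.23 CPM in KO (-0.23 ± 0.16, adjusted p = 0.67). Itgb5 fell from 367 ± 34.7 to 206 ± 44.6 CPM and Itga2, a collagen receptor subunit, from 36.9 ± 8.58 to 0.848 ± 0.793 CPM. Those calls were weaker, since Itgb5 was lost without Het 1, Het 2, KO 2 or KO 3 (adjusted p up to 0.15) and Itga2 without any 1 of the 6 libraries (adjusted p up to 0.22), with fitted changes of -0.83 and -5.31 (-6.02 without KO 2). Of 20 tested genes of kindlins, integrins and focal adhesion 3 fell and 1 rose, with a median of -0.16, and 1 fell without Het 1, Het 2, KO 2 or KO 3.

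Col18a1, a basement membrane collagen, was the lower gene with the smallest p of all. It was at 1184, 1108 and 1203 CPM in Het and 317, 328 and 293 in KO, and each group was tight (-1.9 ± 0.11, adjusted p = 6.0e-07). At E9 it was at 1330.1 ± 61 CPM, so the KO libraries were below both Het ages. Fbln2, a fibulin of basement membranes, was at 317, 341 and 489 CPM in Het and 62.1, 54.7 and 56.1 in KO, with the KO libraries close together (-2.73 ± 0.21, adjusted p = 4.7e-06). Col7a1, which forms the anchoring fibrils beneath the epidermis, was at 150.1, 102 and 76.1 CPM in Het and 10.1, 17 and 14.2 in KO, and the groups were widely separated (-2.99 ± 0.41, adjusted p = 0.0011). Lama5, a laminin chain of many basement membranes, fell from 938 ± 50.1 to 539.8 ± 88.4 CPM (-0.80 ± 0.14, adjusted p = 0.0052).

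Npnt, an integrin ligand of basement membranes, differed in the opposite direction, from 153 ± 5.27 to 343 ± 98.2 CPM (1.16 ± 0.22, adjusted p = 0.012), a call lost without Het 1, KO 1 or KO 3 (adjusted p up to 0.068). Fbln1 fell from 134 ± 28.2 to 59.9 ± 15.8 CPM (-1.17 ± 0.24, adjusted p = 0.019; lost without Het 2, KO 1 or KO 2, with adjusted p up to 0.10). The laminin genes Lama3 and Lamb3, whose chains belong to the laminin of hemidesmosomes, did not pass: Lama3 was at 335, 423 and 331 CPM in Het and 109.8, 53.1 and 58.3 in KO (-2.3 ± 0.52, adjusted p = 0.068) and Lamb3 at 28.2, 53.1 and 86.6 CPM in Het and 20.5, 14.4 and 0 in KO (-2.24 ± 0.97, adjusted p = 0.41). For Lama3 the libraries did not overlap, and for Lamb3 the Het libraries were themselves unequal. Among the 20 tested genes of the basement membrane and Fraser complex 2 fell and 1 rose (none without Het 1, KO 1 or KO 3, and 2 without Het 3 or KO 2), and the Fraser gene Fras1 was at 2205 ± 339.7 CPM in Het and 1970.4 ± 254 CPM in KO (-0.16 ± 0.13, adjusted p = 0.74). Of 27 matrix glycoproteins tested 2 fell, both fibulins, and Vcan, the versican gene, was at 2664, 2638 and 2157 CPM in Het and 1074, 1866 and 585 in KO (-1.08 ± 0.38, adjusted p = 0.29).

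Of 21 tested genes of desmosomes, cadherins and nectins, which hold neighbouring cells together, 6 fell (4 to 7 in the refits) and 2 rose (1 without Het 1 or KO 3). Dsp, which ties keratins to desmosomes, was at 2264, 1817 and 2413 CPM in Het and 757, 647 and 526 in KO. Every KO library was well below the lowest Het library, a 3.36-fold fall (-1.75 ± 0.15, adjusted p = 1.5e-05). Ctnnb1, the beta-catenin gene, fell from 1872 ± 273 to 1118 ± 30.2 CPM (-0.74 ± 0.12, adjusted p = 0.0031), and Cdh13, a cadherin without a cytoplasmic tail, was at 65.9, 55.6 and 64.3 CPM in Het and 0.162, 0.999 and 0.285 in KO. Cdh13 was nearly absent in KO (-6.85 ± 1.01, adjusted p = 0.0023; -8.05 without KO 2). The desmosomal genes Pkp1 and Dsg3 were at or near 0 in KO, Pkp1 at 226, 99.2 and 109 CPM in Het and 6.99, 2.71 and 0 in KO (-5.39 ± 1.04, adjusted p = 0.036; -6.48 without KO 1) and Dsg3 at 89.9, 34.5 and 38.8 CPM in Het and 4.55, 2.0 and 0 in KO (-4.57 ± 0.98, adjusted p = 0.038; -5.57 without KO 1). Their Het libraries differed among themselves, and the calls were lost for Pkp1 without Het 1, Het 2, Het 3, KO 1 or KO 2 (adjusted p up to 0.19) and for Dsg3 without Het 1, Het 2, Het 3 or KO 2 (adjusted p up to 0.17).

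The nectins, which form adhesions beside the cadherins, moved in both directions. Pvrl1, the nectin-1 gene, was at 588, 368 and 309 CPM in Het and 75.4, 73.7 and 80.8 in KO, with the KO values close together (-2.46 ± 0.23, adjusted p = 3.0e-05). Pvrl3, the nectin-3 gene, was at 93.4, 61.4 and 75.7 CPM in Het and 239, 202 and 169 in KO and Pvrl2, the nectin-2 gene, at 62.7, 110.5 and 93.5 CPM in Het and 170.3, 156 and 259 in KO. For both the lowest KO library was above the highest Het library (Pvrl3 1.41 ± 0.25, adjusted p = 0.0076; Pvrl2 1.13 ± 0.24, adjusted p = 0.021), and Pvrl2 was lost without Het 1 or KO 3 (adjusted p up to 0.094). Perp, a desmosome gene and known target of p63, was at 439, 432 and 363 CPM in Het and 55.7, 35.3 and 5.69 in KO, without overlap but with a wide spread in KO, and did not pass (-3.64 ± 0.75, adjusted p = 0.067). Of the gap junction genes Gja1 alone passed among 7 tested: it was at 958, 632 and 573 CPM in Het and 299, 203 and 259.8 in KO (-1.5 ± 0.21, adjusted p = 0.0013), whereas Gjb2, the connexin 26 gene, was at 1180.3 ± 179 CPM in Het and 1046 ± 343 CPM in KO (-0.18 ± 0.21, adjusted p = 0.87).

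**Figure D2:**
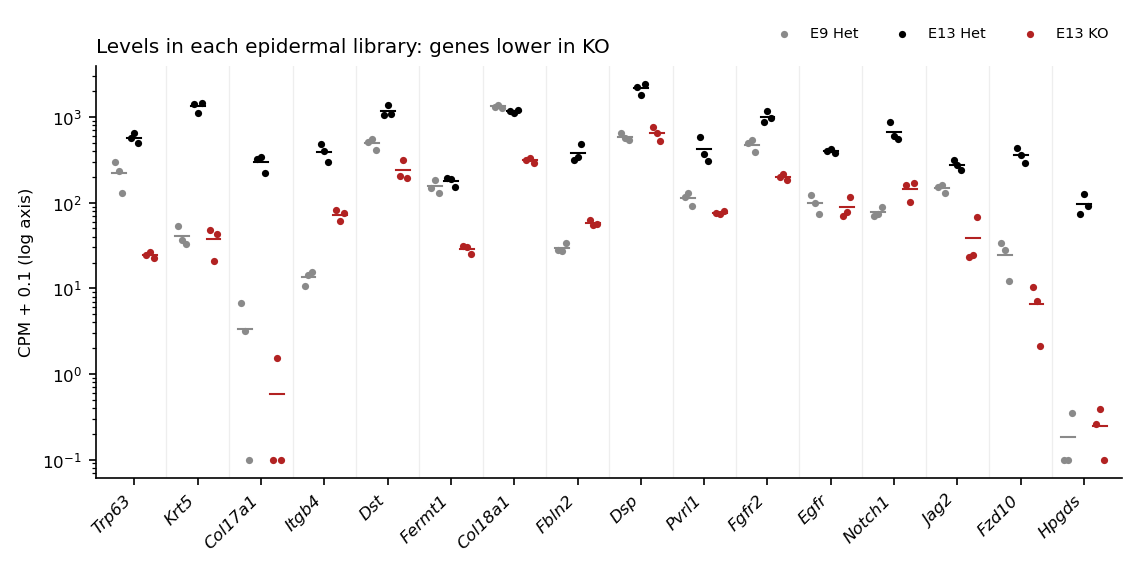
Levels of 16 genes in each epidermal library, as CPM + 0.1 on a log axis, for E9 Het (grey), E13 Het (black) and E13 KO (red); points are libraries and bars the mean of 3. The E13 KO points lie below the E13 Het points in each of these genes, with Hpgds and Col17a1 at or near 0.

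Of 20 tested genes of simple, single-layered epithelia 3 rose in KO and none fell, with a median of 1.03. Epcam, an adhesion molecule of such epithelia, was at 226, 200.2 and 244 CPM in Het and 563, 461 and 504 in KO, a 2.28-fold rise with every KO library above all Het libraries (1.19 ± 0.14, adjusted p = 3.1e-04). Prom1, which encodes a protein of apical membrane protrusions, was at 26.7, 48 and 36.8 CPM in Het and 127, 148 and 160.5 in KO, with a wide gap between the lowest KO and the highest Het library (1.96 ± 0.27, adjusted p = 0.0011).

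More members of the list passed without Het 3. Cldn7, a claudin gene, was at 8.99, 7.79 and 48.2 CPM in Het and 123, 85.4 and 141 in KO and Ocln, the occludin gene, at 8.74, 24.2 and 59.3 CPM in Het and 121, 107 and 91.9 in KO, so that Het 3 lay between the other Het libraries and KO. With all libraries neither passed (Cldn7 2.42 ± 0.64, adjusted p = 0.11; Ocln 1.79 ± 0.52, adjusted p = 0.12). Without Het 3, 11 of the 20 genes rose, against 3 with all libraries and 2 or 3 in the other refits. With all libraries, 16 of the 20 were higher in KO by the fit and 4 lower, and 8 had an unadjusted p under 0.05 in edgeR. In 10 of the 20 every KO library was above every Het library, against 10.3% of all genes. DESeq2 with all libraries called 8 of the 20 higher and limma voom 9. The summed level of the list was 1449 to 4204 CPM in Het and 4195 to 5449 CPM in KO, the highest of the Het values being Het 3. The periderm markers, a list of 10 genes, summed to 732 to 2380.4 CPM in Het and 878 to 1566 CPM in KO, again highest in Het 3, and of its members Krt13 was at 0 throughout. The part of periderm cells in the difference was not tested. Cldn8, a claudin gene outside that list, rose from 14.9 ± 4.34 to 61.8 ± 10.9 CPM (2.05 ± 0.37, adjusted p = 0.0075).

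Stratification and periderm genes fell in part. Ripk4, a kinase gene needed for keratinocyte differentiation, was at 142, 101 and 135 CPM in Het and 53.8, 41.3 and 46.4 in KO (-1.41 ± 0.24, adjusted p = 0.0042). Sfn, the 14-3-3 sigma gene, was at 402, 289 and 319 CPM in Het and 152, 104 and 42.7 in KO, and Grhl3, a grainyhead factor of barrier formation, at 297, 119 and 265 CPM in Het and 107, 82.8 and 66.6 in KO. All KO libraries were below all Het libraries in these genes (Sfn -1.75 ± 0.36, adjusted p = 0.03; Grhl3 -1.4 ± 0.32, adjusted p = 0.037). Each of these calls depended on single libraries: Sfn was lost without Het 1, Het 2, Het 3 or KO 2 (adjusted p up to 0.13) and Grhl3 without Het 1, Het 3, KO 1, KO 2 or KO 3 (adjusted p up to 0.17). In all, 4 of 12 tested members of the suprabasal list fell and none rose. Without Het 1 or KO 2, 1 of them fell, and without Het 3, 2. Scel, the sciellin gene of the cornified envelope, also fell, from 49.7 ± 20.5 to 1.8 ± 1.71 CPM (-4.7 ± 0.95, adjusted p = 0.016; -5.45 without KO 1; lost without Het 3 or KO 2, with adjusted p up to 0.10). Krt10, an early suprabasal keratin gene, was at 28.5, 11.5 and 4.43 CPM in Het and 0, 0.857 and 0 in KO (-5.47 ± 1.73, adjusted p = 0.16), and loricrin and involucrin counts were at or near 0 in both groups.

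Growth factor receptors were among the genes with the smallest p. Fgfr2, the receptor whose epithelial form answers FGF7 and FGF10, was at 865, 1172 and 983 CPM in Het and 199, 218 and 186 in KO. It fell 5.0-fold with little spread in KO (-2.32 ± 0.16, adjusted p = 2.7e-06), and E9 was at 477 ± 79.1 CPM. Egfr, the epidermal growth factor receptor gene, was at 406, 420.4 and 378 CPM in Het and 70.5, 77.7 and 116 in KO (-2.2 ± 0.22, adjusted p = 6.8e-05). KO 3 was the highest of the KO libraries and still below every Het library. Axl, a receptor tyrosine kinase gene, fell from 183 ± 16.8 to 63.1 ± 12.1 CPM (-1.54 ± 0.20, adjusted p = 6.4e-04). Irs1, an adaptor of insulin and IGF receptors, fell from 261 ± 60.9 to 104 ± 9.69 CPM (-1.33 ± 0.19, adjusted p = 0.0015).

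The receptor genes Fgfr1 and Met were higher in KO. Fgfr1 was at 30.2, 53.5 and 34.7 CPM in Het and 87.6, 87.8 and 82.8 in KO and Met, the hepatocyte growth factor receptor gene, at 73.9, 76.6 and 113 CPM in Het and 168, 158 and 156 in KO. For both the KO libraries were tight and above Het (Fgfr1 1.12 ± 0.26, adjusted p = 0.037; Met 0.87 ± 0.21, adjusted p = 0.0495), but Fgfr1 was lost without Het 1, Het 3, KO 1, KO 2 or KO 3 (adjusted p up to 0.11) and Met without Het 1, Het 2, KO 1, KO 2 or KO 3 (adjusted p up to 0.18). Ligands made by epidermis also fell. Kitl, the KIT ligand that melanoblasts respond to, was at 48.2, 84.4 and 70.4 CPM in Het and 4.06, 13 and 3.98 in KO (-3.23 ± 0.51, adjusted p = 0.0031; -4.07 without KO 2). Pdgfa, a signal to the dermis, was at 242, 192 and 133 CPM in Het and 95.4, 89.9 and 85.1 in KO (-1.07 ± 0.25, adjusted p = 0.038; lost without Het 1, Het 2, KO 1, KO 2 or KO 3, with adjusted p up to 0.14). Of the 22 tested genes of the FGF pathway Fgfr2 fell and Fgfr1 rose, and Esrp1 and Esrp2, the factors that splice Fgfr2 in epithelia, did not pass (Esrp2 116 ± 36.8 CPM in Het and 151 ± 48.8 CPM in KO; 0.38 ± 0.57, adjusted p = 0.91). Gathering receptors and their ligands by kind was done after their values were seen, as for the other groups below that are not called lists.

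Of 21 tested genes of the Notch pathway 5 fell and 1 rose, with 4 to 5 that fell in the refits and a median of -0.49. Notch1, the main receptor of the pathway in epidermis, was at 882, 595 and 550.1 CPM in Het and 161, 102 and 171 in KO, a 4.67-fold fall with no overlap (-2.22 ± 0.23, adjusted p = 6.8e-05). Its ligand genes fell too: Jag2 was at 314, 274 and 244 CPM in Het and 23.1, 24.3 and 67.7 in KO (-2.88 ± 0.37, adjusted p = 0.0014; -3.57 without KO 3) and Dll1 at 47.2, 62.4 and 65.6 CPM in Het and 6.99, 7.42 and 11.7 in KO (-2.76 ± 0.43, adjusted p = 0.0027). Jag1, a further ligand gene, was at 217, 219.8 and 261 CPM in Het and 47.9, 34.5 and 7.97 in KO. KO 3 was the lowest of its group, and the call (-2.92 ± 0.48, adjusted p = 0.0099) was lost without KO 2 (adjusted p up to 0.069).

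Nrarp, a feedback inhibitor that Notch signalling induces, was at 125, 58.3 and 66.7 CPM in Het and 5.36, 12.3 and 13.9 in KO (-2.99 ± 0.50, adjusted p = 0.0046). Notch3 went the other way, at 139, 73.6 and 172 CPM in Het and 412, 318 and 314 in KO, with every KO library above 300 CPM (1.44 ± 0.26, adjusted p = 0.0086). The target gene Hes1 was at 60.2, 48.9 and 75.6 CPM in Het and 24.7, 24.1 and 25 in KO (-1.32 ± 0.41, adjusted p = 0.14). Notch2, the other receptor gene with a high level, was at 256 ± 56.3 CPM in Het and 182 ± 39.1 CPM in KO (-0.49 ± 0.20, adjusted p = 0.32).

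In the ectodysplasin pathway, which sets out hair placodes, 1 of 9 tested genes passed. Edaradd, the adaptor of the receptor, was at 115, 72.3 and 62.6 CPM in Het and 0.162, 0.999 and 0 in KO and so almost absent from KO (-7.45 ± 0.76, adjusted p = 6.8e-05; -9.38 without KO 2). The receptor gene Edar was at 73.7, 71.7 and 32.3 CPM in Het and 26.2, 24.4 and 46.7 in KO (-0.87 ± 0.41, adjusted p = 0.44), with overlapping groups, and the related Tnfrsf19 at 418, 443 and 384 CPM in Het and 275, 285 and 248 in KO (-0.62 ± 0.15, adjusted p = 0.0503).

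By list, 3 of 17 Wnt ligand genes and 3 of 17 frizzled and co-receptor genes fell and none rose (1 Wnt ligand gene without KO 2). Wnt10b, a ligand of early placodes, was at 199.8, 129 and 138 CPM in Het and 28.1, 9.71 and 13.4 in KO (-3.18 ± 0.45, adjusted p = 0.0015; -3.77 without KO 1), with all KO libraries far below Het. Fzd10, a frizzled receptor gene, was at 437, 363 and 288 CPM in Het and 10.2, 6.99 and 1.99 in KO, a 53.7-fold fall (-5.75 ± 0.52, adjusted p = 2.5e-04). Fzd6, a frizzled with a role in hair orientation, was at 476, 344 and 339 CPM in Het and 142, 76.8 and 80.8 in KO (-1.95 ± 0.27, adjusted p = 0.0012). Kremen2, a co-receptor of Wnt inhibitors, fell from 289 ± 97.4 to 50.7 ± 4.41 CPM (-2.51 ± 0.28, adjusted p = 1.6e-04).

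Other members passed less firmly. Wnt4 fell from 286 ± 41.7 to 132 ± 32.8 CPM (-1.12 ± 0.24, adjusted p = 0.023; lost without Het 1, KO 1 or KO 2, with adjusted p up to 0.11). Wnt3a fell from 27.1 ± 5.23 to 0.318 ± 0.434 CPM (-6.22 ± 1.3, adjusted p = 0.028; -7.93 without KO 1; lost without Het 2, Het 3 or KO 2, with adjusted p up to 0.17). The R-spondin receptor gene Lgr4 fell from 229 ± 61 to 114 ± 22 CPM (-1.0 ± 0.24, adjusted p = 0.041; lost without Het 1, Het 2, KO 1 or KO 2, with adjusted p up to 0.20). Sostdc1, a secreted inhibitor of Wnt and BMP, rose from 117 ± 9.16 to 211 ± 36.2 CPM (0.86 ± 0.19, adjusted p = 0.026; lost without Het 1, Het 2, KO 1 or KO 3, with adjusted p up to 0.14). Sost, the sclerostin gene, rose from 0.308 ± 0.533 to 18.1 ± 11.2 CPM (5.79 ± 1.33, adjusted p = 0.042; 5.09 without Het 2 and 9.62 without Het 3; lost without Het 1, Het 2, KO 1 or KO 3, with adjusted p up to 0.19). Of 24 antagonists and targets 2 rose and 1 fell, and none rose in some of the refits. Axin2, a general target of beta-catenin signalling, was at 229.8, 201 and 135 CPM in Het and 173, 208 and 216 in KO (0.08 ± 0.21, adjusted p = 0.96), with overlapping groups, and Lef1, a nuclear partner of beta-catenin, at 259, 374 and 185 CPM in Het and 157, 197 and 137 in KO (-0.74 ± 0.23, adjusted p = 0.15). Dkk4, a target in placodes, had no counts in the 3 KO libraries and 24.7, 14.3 and 8.31 CPM in Het, and did not pass (adjusted p = 0.057).

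Of 33 tested genes of BMP, activin and TGF-beta signalling 1 fell and 3 rose. Fst, the follistatin gene that binds activin, was at 129.6, 63 and 46.6 CPM in Het and 0.487, 3.43 and 0 in KO (-5.77 ± 1.0, adjusted p = 0.02; -7.97 without KO 2), and its call was lost without Het 1, Het 2 or KO 1 (adjusted p up to 0.11). Ltbp1, which stores latent TGF-beta, rose from 110.1 ± 57.1 to 289.6 ± 57.6 CPM, Tgfb2, a ligand, from 61.2 ± 30.8 to 147 ± 14.3 CPM, and Skil, an inhibitor of SMADs, from 184 ± 33.3 to 335 ± 81.5 CPM. In each of the 3 the KO libraries lay above all Het libraries (Ltbp1 1.39 ± 0.31, adjusted p = 0.039; Tgfb2 1.26 ± 0.31, adjusted p = 0.0488; Skil 0.86 ± 0.21, adjusted p = 0.0477). The calls were lost for Ltbp1 without Het 1, Het 2, KO 1 or KO 3 (adjusted p up to 0.18), for Tgfb2 without Het 1, Het 2, KO 1, KO 2 or KO 3 (adjusted p up to 0.18) and for Skil without Het 1, Het 2, KO 1 or KO 3 (adjusted p up to 0.23). None rose without Het 1, Het 2, KO 1 or KO 3, and none fell without Het 1, Het 2 or KO 1. Bmp7, a BMP ligand of the epidermis, was at 374, 229 and 231 CPM in Het and 97.7, 100.3 and 195 in KO (-1.09 ± 0.28, adjusted p = 0.064).

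Of 19 tested hedgehog and PDGF genes 3 rose and 2 fell (2 to 4 and 0 to 2 in the refits), and the hedgehog co-receptors split. Cdon rose from 201 ± 29.8 to 444 ± 56.1 CPM (1.14 ± 0.20, adjusted p = 0.0052). Gas1 rose from 137 ± 9.7 to 257 ± 42.5 CPM (0.90 ± 0.17, adjusted p = 0.01; lost without KO 1, with adjusted p up to 0.072). Boc, a co-receptor of the same family as Cdon, fell from 136 ± 48.3 to 50.7 ± 9.87 CPM (-1.42 ± 0.28, adjusted p = 0.014; lost without Het 1 or KO 1, with adjusted p up to 0.082). Glis3, a zinc finger factor related to GLI, was at 0, 1.98 and 3.51 CPM in Het and 53, 55.8 and 31.9 in KO, near absence in Het and a clear level in each KO library (4.62 ± 0.79, adjusted p = 0.0052; 5.38 without Het 3). The pathway's transducer gene Smo was at 251 ± 8.04 CPM in Het and 232 ± 17.3 CPM in KO (-0.11 ± 0.16, adjusted p = 0.90).

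**Figure D3:**
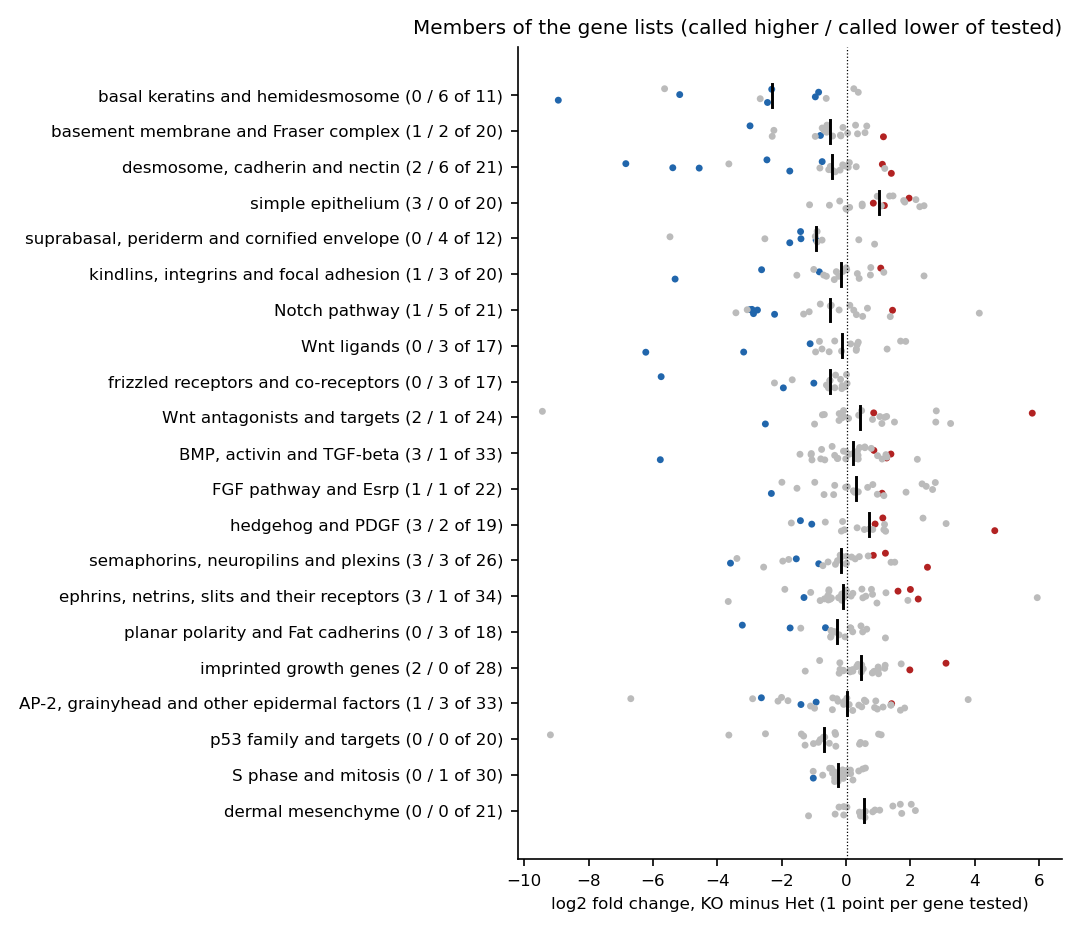
Log2 fold change (KO minus Het) of each tested member of 21 gene lists, 1 point per gene, with red for members that rose, blue for members that fell and grey for the rest; black bars are list medians, the dotted line is the median of all genes tested (0.03), and the counts beside each name are higher / lower of tested. The hemidesmosome list has its median at -2.31 and the simple epithelium list at 1.03.

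The gene with the smallest p of the comparison encodes a guidance molecule. Sema3a, a secreted repellent of axons and of migrating cells, was at 133, 137 and 128 CPM in Het and 715, 722 and 858 in KO. It rose 5.77-fold, each group being tight (2.53 ± 0.14, adjusted p = 3.6e-07), and E9 stood between them at 384 ± 23.5 CPM. Sema3c, of the same class, was at 184, 167 and 270.4 CPM in Het and 543, 446 and 461 in KO (1.22 ± 0.18, adjusted p = 0.0019). Sema3d, also a secreted semaphorin, was at 127, 183 and 119.9 CPM in Het and 257, 255 and 261 in KO (0.85 ± 0.19, adjusted p = 0.029; lost without Het 1, Het 3, KO 1, KO 2 or KO 3, with adjusted p up to 0.098). Slit2, the ligand of Robo receptors, was at 29, 60.2 and 56.3 CPM in Het and 186, 198 and 200.3 in KO (2.0 ± 0.29, adjusted p = 0.0015). The receptor genes Unc5c, for netrins, and Epha7, for ephrins, rose from 10.2 ± 6.49 to 49.2 ± 10.02 CPM (2.24 ± 0.46, adjusted p = 0.018; lost without KO 1, with adjusted p up to 0.076) and from 33.1 ± 2.58 to 102 ± 34.1 CPM (1.61 ± 0.36, adjusted p = 0.029; lost without Het 1, Het 2, Het 3, KO 2 or KO 3, with adjusted p up to 0.13).

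Other guidance genes fell. Sema6d, a transmembrane semaphorin, was at 129, 129 and 110.5 CPM in Het and 4.87, 13 and 12.8 in KO, a 12.1-fold fall (-3.59 ± 0.42, adjusted p = 2.5e-04). Sema4g, also a transmembrane semaphorin, fell from 61.7 ± 18.9 to 21 ± 2.37 CPM (-1.55 ± 0.35, adjusted p = 0.034; lost without Het 1, Het 3, KO 1, KO 2 or KO 3, with adjusted p up to 0.15). The semaphorin receptor gene Plxna1 fell from 427 ± 82.8 to 237 ± 15.1 CPM (-0.85 ± 0.16, adjusted p = 0.012; lost without KO 2, with adjusted p up to 0.0525). The ephrin receptor gene Epha1 fell from 143 ± 1.02 to 57.7 ± 11.5 CPM (-1.31 ± 0.21, adjusted p = 0.0031). In total 3 of 26 semaphorin, neuropilin and plexin genes rose (2 to 3 in the refits) and 3 fell (2 to 3 in the refits). Of 34 genes of ephrins, netrins, slits and their receptors 3 rose (2 in each refit without 1 library) and 1 fell (2 without KO 1 or KO 3). The 3 that rose in the first list are all secreted class 3 ligands, and the semaphorins that fell are membrane proteins. The class 3 receptors Nrp1 and Nrp2 did not pass, with Nrp1 at 35.5, 17.6 and 61.9 CPM in Het and 5.52, 27.3 and 0 in KO (-1.78 ± 1.19, adjusted p = 0.67) and Nrp2 at 10.7, 53 and 13.9 CPM in Het and 90.5, 81.4 and 52.9 in KO (1.51 ± 0.80, adjusted p = 0.57).

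Some polarity genes of the giant cadherins fell. Fat2 was at 365, 241 and 187 CPM in Het and 30.9, 28.6 and 25 in KO, a 9.35-fold fall with a narrow KO range (-3.23 ± 0.31, adjusted p = 3.8e-05). Celsr2, a large cadherin of planar polarity, was at 294, 246 and 192 CPM in Het and 65.8, 57.5 and 96.7 in KO (-1.74 ± 0.23, adjusted p = 9.2e-04). Fat1, another atypical cadherin, was at 1869.8, 1920.3 and 1981 CPM in Het and 1335, 1299.9 and 1066 in KO (-0.64 ± 0.11, adjusted p = 0.007). These were the 3 of 18 tested planar polarity genes that passed, and the same number fell in each refit. The list median was -0.27, with 11 genes lower in KO by the fit and 7 higher. Celsr1, the large cadherin that orients hair follicles, was at 950.2, 891 and 774 CPM in Het and 736, 498 and 655 in KO (-0.47 ± 0.16, adjusted p = 0.18). Vangl2 was at 59.3 ± 8.06 CPM in Het and 68.4 ± 16.6 CPM in KO (0.21 ± 0.26, adjusted p = 0.88). Of the apical polarity complex, Pard6g fell from 125 ± 12.2 to 44.7 ± 9.15 CPM (-1.49 ± 0.27, adjusted p = 0.007). Prkci, its kinase partner, fell from 253 ± 20.5 to 155 ± 3.75 CPM (-0.71 ± 0.17, adjusted p = 0.039; lost without Het 1, Het 2, KO 1, KO 2 or KO 3, with adjusted p up to 0.14).

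**Figure D4:**
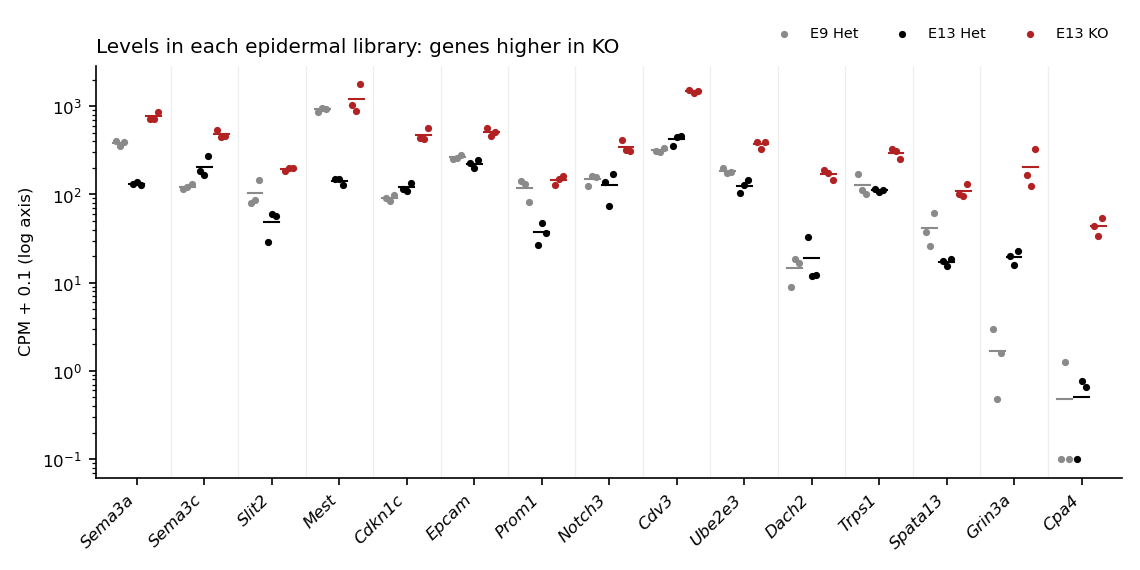
Levels of 15 genes in each epidermal library, as CPM + 0.1 on a log axis, for E9 Het (grey), E13 Het (black) and E13 KO (red); points are libraries and bars the mean of 3. The E13 KO points lie above the E13 Het points in each gene, and Cpa4 is at or near 0 in E9 Het and E13 Het.

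Transcription factors and other epidermal factors that fell included Irx4, an Iroquois homeobox gene, at 411, 367 and 306 CPM in Het and 79.6, 59.2 and 45.8 in KO (-2.55 ± 0.27, adjusted p = 1.2e-04). Bnc1, the basonuclin gene of proliferating keratinocytes, was at 58.9, 84.2 and 154 CPM in Het and 13, 8.71 and 18.8 in KO (-2.89 ± 0.43, adjusted p = 0.002). In both the highest KO library was far below the lowest Het library. Snai2, the Slug gene, was at 88.9, 79.9 and 65.8 CPM in Het and 2.11, 12.1 and 13.9 in KO (-3.07 ± 0.59, adjusted p = 0.014). Of 11 tested factors of epithelial-mesenchymal transition 1 fell and none rose. The median of that list was 0.89, with 7 genes higher in KO by the fit and 4 lower. Trim29, a gene of stratified epithelia, was at 443, 252 and 239 CPM in Het and 15.6, 8.99 and 0.854 in KO (-5.12 ± 0.75, adjusted p = 0.011; -5.83 without KO 1; lost without KO 2, with adjusted p up to 0.094). Barx2, a homeobox gene, was at 101, 67 and 65 CPM in Het and 13, 12.6 and 11.9 in KO (-2.63 ± 0.55, adjusted p = 0.021; lost without Het 1, KO 1, KO 2 or KO 3, with adjusted p up to 0.11). Irx1 fell from 69.3 ± 4.55 to 19.6 ± 7.3 CPM (-1.82 ± 0.39, adjusted p = 0.024; lost without Het 1, Het 2, Het 3, KO 2 or KO 3, with adjusted p up to 0.092), so that 2 of 7 tested Iroquois-list genes fell, and Sox6 fell from 194 ± 32.6 to 62.6 ± 25.2 CPM (-1.64 ± 0.35, adjusted p = 0.029; lost without Het 2, Het 3, KO 1 or KO 2, with adjusted p up to 0.14).

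Factors that rose included Dach2, a dachshund family gene, at 32.7, 11.9 and 12.2 CPM in Het and 188, 173 and 146 in KO (3.18 ± 0.41, adjusted p = 7.2e-04; 3.81 without Het 1). Het 1 was the highest of the Het libraries and still far below KO. Trps1, a GATA-type repressor of skin and cartilage, was at 116, 106 and 111 CPM in Het and 324, 309 and 254 in KO (1.41 ± 0.21, adjusted p = 0.0015). Rfx3, a ciliary regulator, rose from 86.5 ± 11 to 184 ± 19.9 CPM (1.09 ± 0.20, adjusted p = 0.0076). Cux2, a homeobox repressor, was at 1.5, 14.3 and 21.4 CPM in Het and 170.3, 124 and 137 in KO (3.51 ± 0.65, adjusted p = 0.019; 4.13 without Het 3; lost without Het 2, KO 1 or KO 3, with adjusted p up to 0.11). Meis2, a homeobox gene of limb and other tissues, rose from 310.5 ± 62.6 to 486 ± 11.1 CPM (0.64 ± 0.15, adjusted p = 0.038; lost without Het 1, Het 2, KO 1, KO 2 or KO 3, with adjusted p up to 0.12). Nfat5, a factor of the response to salt, rose from 413 ± 73.3 to 795 ± 116 CPM (0.94 ± 0.16, adjusted p = 0.0049). Among 33 tested AP-2, grainyhead and other epidermal factors 3 fell and 1 rose. None fell without Het 1, KO 1 or KO 2 and 1 fell without KO 3, while 3 rose without Het 2 and 2 without Het 3. With all libraries 15 of the 33 had an unadjusted p under 0.05 in edgeR, against 1494 of all 13052 genes tested. In 9 every KO library was below every Het library, against 9.78% of all genes, and in 5 above, against 10.3%. DESeq2 called 5 of the 33 higher and 7 lower, and limma voom 4 higher and 3 lower. Tfap2a and Tfap2b, AP-2 genes of the early ectoderm, were at 350.4, 222 and 225 CPM in Het and 222, 206 and 165 in KO (-0.43 ± 0.20, adjusted p = 0.43) and at 962 ± 114 CPM in Het and 1028 ± 89.6 CPM in KO (0.10 ± 0.15, adjusted p = 0.91), and neither passed.

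Nuclear receptor genes and the retinoid system moved in both directions. Rarg, the retinoic acid receptor of skin, fell from 159 ± 4.51 to 60.6 ± 15.6 CPM (-1.38 ± 0.25, adjusted p = 0.0076). Its partner Rxra fell from 222 ± 28.4 to 100.4 ± 14.1 CPM (-1.15 ± 0.22, adjusted p = 0.011; lost without KO 1 or KO 2, with adjusted p up to 0.0537). Nr3c1, the glucocorticoid receptor gene, fell from 172 ± 29.8 to 69.7 ± 22.3 CPM (-1.3 ± 0.27, adjusted p = 0.019; lost without Het 3, with adjusted p up to 0.066). Crabp2, which carries retinoic acid to the nucleus, was at 11.7, 17.6 and 8.13 CPM in Het and 73.1, 66.2 and 41.8 in KO and so higher in each KO library than in any Het library (2.27 ± 0.33, adjusted p = 0.0017), below E9 at 181 ± 56.6 CPM. Ahr, the aryl hydrocarbon receptor gene, was at 106, 94.7 and 147 CPM in Het and 249.9, 242 and 273 in KO (1.14 ± 0.21, adjusted p = 0.008). Of 18 tested genes of the aryl hydrocarbon receptor and retinoid list 2 rose (Ahr and Crabp2) and 1 fell (Rarg).

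The imprinted genes Mest and Cdkn1c rose. Mest, expressed from the paternal copy, was at 151, 148 and 127 CPM in Het and 1024, 872 and 1772 in KO, an 8.6-fold rise with KO 3 the highest (3.1 ± 0.23, adjusted p = 9.5e-06). E9 was at 919 ± 52.4 CPM, within the range of the KO libraries. Cdkn1c, the inhibitor of cyclin-dependent kinases p57, was at 116, 111 and 134 CPM in Het and 437, 426 and 561 in KO (1.98 ± 0.17, adjusted p = 1.0e-05), with E9 at 91.5 ± 7.86 CPM. They were the 2 of 28 tested imprinted genes that passed with all libraries. Without Het 3, 9 rose, without KO 2, 4. Peg3, another paternally expressed gene, was at 631, 908 and 1714 CPM in Het and 1794, 2142 and 1998 in KO (0.87 ± 0.30, adjusted p = 0.27), with Het 3 at the KO level. Igf2, a growth factor gene of the same class, was at 958, 822 and 2534 CPM in Het and 1696, 1528 and 1466 in KO, with overlapping groups.

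Of 30 tested S phase and mitosis genes 1 passed, and the list median was -0.26. That gene, Ccnd2, which encodes cyclin D2, fell from 605 ± 103 to 298 ± 27.9 CPM (-1.02 ± 0.15, adjusted p = 0.002). By the fit 23 of the 30 were lower in KO and 7 higher, and 6 had an unadjusted p under 0.05 in edgeR. In 6 every KO library was below every Het library, against 9.78% of all genes, and in 1 above, against 10.3%. Mki67 was at 1874, 2421 and 2014 CPM in Het and 1611, 2024 and 1542 in KO (-0.29 ± 0.13, adjusted p = 0.40), and the groups overlapped. Of 20 tested genes of a list of the p53 family and its targets, which leaves out Trp63, none passed, with a median of -0.69. In edgeR 8 of the 20 had an unadjusted p under 0.05, against 1494 of all 13052 genes tested. DESeq2 called 2 of the 20 higher and 5 lower, and limma voom 1 higher and 3 lower. Without Het 3, 2 rose, and without KO 3, 1 fell. Trp73, the p73 gene, was at 3.25, 17.4 and 19 CPM in Het and had no counts in KO (adjusted p = 0.11).

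Some of the largest differences were in genes at or near 0 in KO. Hpgds, the hematopoietic-type prostaglandin D synthase gene, was at 73.9, 126 and 92.2 CPM in Het and 0.162, 0.285 and 0 in KO. The 3 KO libraries held 3 counts together against 1746 in Het, a ratio of 571 with a 95% counting interval of 195 to 2773, and the adjusted p was 4.7e-06. The fitted log2 fold change was -8.94, and -9.6 without KO 2. Serpinb10, a clade B serpin gene, was at 28.2, 62.9 and 66.1 CPM in Het and 0.162, 0.143 and 0 in KO, a ratio of 465 (95% counting interval 128 to 3844) with adjusted p = 2.5e-04. These intervals cover counting error only. Hpgds was the sole member to pass of 13 tested genes of prostaglandin synthesis and response, and Serpinb10 of 3 tested serpins. Mpped1, a metallophosphoesterase-domain gene, was at 52.9, 67 and 57.5 CPM in Het and 0, 0.714 and 0 in KO (-7.6 ± 0.98, adjusted p = 7.2e-04; -11.29 without KO 2).

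Sugar-modifying enzymes fell and rose. Mgat5, which branches N-glycans, was at 344, 356 and 265 CPM in Het and 52.8, 57.8 and 45.2 in KO (-2.63 ± 0.21, adjusted p = 7.2e-06). Chst15, a chondroitin sulfotransferase gene, was at 217, 195 and 148 CPM in Het and 29.6, 23 and 34.7 in KO (-2.69 ± 0.33, adjusted p = 3.6e-04). Has3, a hyaluronan synthase gene, was at 37, 42.9 and 27.7 CPM in Het and 0.812, 0.999 and 0 in KO (-5.74 ± 1.12, adjusted p = 0.012; lost without Het 2 or KO 1, with adjusted p up to 0.11). B4galt5, a galactosyltransferase gene, rose from 32.9 ± 4.36 to 127 ± 49.9 CPM (1.94 ± 0.27, adjusted p = 0.0013). Hs6st1, a heparan sulfate sulfotransferase gene, rose from 196 ± 51.9 to 512 ± 179 CPM (1.38 ± 0.26, adjusted p = 0.012; lost without Het 1 or Het 2, with adjusted p up to 0.068). Sdc1, a heparan sulfate proteoglycan of epithelia, fell from 248 ± 42.6 to 64.2 ± 2.22 CPM (-1.95 ± 0.18, adjusted p = 2.9e-05). Genes of lipid and one-carbon metabolism that fell included Pltp, a phospholipid transfer protein, at 118, 101 and 77.4 CPM in Het and 4.06, 1.43 and 0 in KO (-5.63 ± 0.67, adjusted p = 7.2e-04; -6.78 without KO 1). Mthfd1, a folate enzyme, fell from 248 ± 8.25 to 88.7 ± 21.3 CPM (-1.48 ± 0.20, adjusted p = 7.8e-04).

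Some genes better known from nerve cells, picked after their values were seen, rose and others fell. Grin3a, an NMDA receptor subunit gene, was at 19.7, 15.7 and 22.9 CPM in Het and 168, 123 and 324 in KO (3.4 ± 0.45, adjusted p = 0.0013). Cacna1e, a calcium channel gene, was at 22, 22.1 and 58 CPM in Het and 207, 168 and 229 in KO (2.56 ± 0.39, adjusted p = 0.0027; 3.2 without Het 3). Kcnt2, a potassium channel gene, was at 0, 1.85 and 0 CPM in Het and 58.7, 88.6 and 119 in KO (6.88 ± 1.28, adjusted p = 0.026; 11.85 without Het 2; lost without Het 1, Het 3, KO 1, KO 2 or KO 3, with adjusted p up to 0.078). Adcy1, an adenylyl cyclase gene, rose from 80.4 ± 30.9 to 191 ± 38.7 CPM (1.25 ± 0.30, adjusted p = 0.0469; lost without Het 1, Het 2, KO 1, KO 2 or KO 3, with adjusted p up to 0.22). Map2, a microtubule protein of neurons, was at 2.0, 13.6 and 16.8 CPM in Het and 81.9, 130.2 and 49.2 in KO (2.99 ± 0.66, adjusted p = 0.041; lost without Het 2, KO 1, KO 2 or KO 3, with adjusted p up to 0.15). Genes that fell were Camk4, a calmodulin kinase gene, at 48.7, 50.1 and 66.5 CPM in Het and 1.79, 3.57 and 0 in KO (-4.83 ± 0.71, adjusted p = 0.0017; -5.73 without KO 2), and Sv2b, a synaptic vesicle gene that overlaps another annotated gene, at 61.2, 51.9 and 25.9 CPM in Het and 0.162, 0.857 and 0 in KO (-6.83 ± 0.99, adjusted p = 0.0027; -8.56 without KO 2). In both, every KO library was below every Het library.

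Beside these, the whole list of neuron and neural tube markers was counted: 1 of 15 tested genes (Map2) rose, and the list summed to 69.4 to 162 CPM in Het and 258 to 370.3 CPM in KO. The list median was 1.60, with 12 of the 15 genes higher in KO by the fit and 3 lower. In 5 of the 15 every KO library was above every Het library, against 10.3% of all genes. At an unadjusted p under 0.05 there were 3 genes, and DESeq2 called 3 higher and limma voom 1. Low in both groups were Tubb3, at 0, 5.15 and 0.554 CPM in Het and 6.82, 5.85 and 0 in KO, and Elavl3, at 0, 2.51 and 1.85 CPM in Het and 0.162, 3.14 and 0 in KO. Neurog1 was at 0 in all 6 libraries. Of this list none rose without Het 2 or any 1 of the KO libraries, and 2 without Het 3. The part of neural cells in the rise of the channel genes was not tested. Bex1 and Ngfrap1, small adaptor genes also expressed outside neurons, rose from 51.5 ± 20.5 to 183 ± 36.3 CPM (1.82 ± 0.28, adjusted p = 0.0021) and from 134 ± 6.6 to 265 ± 44.7 CPM (0.98 ± 0.17, adjusted p = 0.0049).

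Further genes rose with a small p. Cdv3, a gene of little known function, was at 353, 447 and 462 CPM in Het and 1517, 1426 and 1478 in KO (1.81 ± 0.13, adjusted p = 3.4e-06). Ube2e3, a ubiquitin-conjugating enzyme gene, was at 104, 126 and 148 CPM in Het and 395, 326 and 392 in KO (1.56 ± 0.17, adjusted p = 1.2e-04). Cpa4, a carboxypeptidase gene, was at 0, 0.661 and 0.554 CPM in Het and 44, 33.5 and 54.6 in KO (6.58 ± 1.16, adjusted p = 0.0065). Cdv3 had a narrow range in KO, and Cpa4 was nearly absent from Het. Spata13, a guanine nucleotide exchange factor gene for small GTPases, was at 17.7, 15.5 and 18.5 CPM in Het and 102, 95.6 and 133 in KO (2.68 ± 0.33, adjusted p = 4.8e-04). Tmem132c, a transmembrane protein gene that overlaps another gene, was at 21.5, 32.4 and 34.4 CPM in Het and 175, 185 and 232 in KO (2.74 ± 0.35, adjusted p = 7.2e-04). Obsl1, a cytoskeletal linker gene, was at 82.7, 102 and 104 CPM in Het and 243, 197 and 259 in KO (1.27 ± 0.17, adjusted p = 9.8e-04). None of the 3 overlapped between the groups. Among lower genes, Zfp36l2, which promotes the decay of messenger RNAs, was at 157, 139.9 and 111 CPM in Het and 27, 24.3 and 25 in KO, again without overlap (-2.42 ± 0.23, adjusted p = 4.1e-05). Cdh6, a cadherin gene, was at 61.2, 19.8 and 48.2 CPM in Het and 259, 180.0 and 198 in KO (2.31 ± 0.38, adjusted p = 0.0046). Alcam, an adhesion molecule gene, rose from 159 ± 74.3 to 435 ± 77.1 CPM (1.45 ± 0.28, adjusted p = 0.014; lost without Het 2 or KO 3, with adjusted p up to 0.073). Malat1, a nuclear noncoding RNA, rose from 7102 ± 1209 to 11855 ± 1538 CPM (0.74 ± 0.14, adjusted p = 0.009).

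Markers of other cell types that a sort of GFP-positive skin cells could hold were measured as whole lists. None of 21 tested dermal mesenchyme genes passed in edgeR with all libraries (1 at an unadjusted p under 0.05, against 1494 of all 13052 genes tested, and 1 called higher by DESeq2 and by limma voom). The list summed to 983 to 2470.5 CPM in Het and 1833 to 3392 CPM in KO. Its median was 0.57, with 16 genes higher in KO by the fit and 5 lower. The median ran from -0.24 without KO 2 to 1.56 without Het 2. In edgeR 1 gene rose without Het 2, and 1 with a replicate block. Col3a1 was at 83.7, 406 and 81.8 CPM in Het and 635, 983 and 933 in KO (2.15 ± 0.72, adjusted p = 0.28) and Pdgfra, the dermal sort marker, at 28.2, 59.7 and 11.8 CPM in Het and 46.8, 94.9 and 35.6 in KO (0.83 ± 0.55, adjusted p = 0.66), with the highest values in KO 2 and, within Het, in Het 2. Of 5 tested melanocyte and neural crest genes, 6 endothelial, 6 skeletal muscle, 1 erythroid, 2 macrophage and 6 endoderm genes none passed in edgeR. In the melanocyte and neural crest list 1 gene had an unadjusted p under 0.05, and DESeq2 and limma voom each called 1 gene higher, while the other lists had 0 on each count. The melanocyte and neural crest list summed to 149 to 230 CPM in Het and 273 to 293 CPM in KO, with a median of 0.70. By the fit 4 of its 5 tested genes were higher in KO and 1 lower, and 1 rose without Het 3. The part of dermal and other such cells in the differences was not tested. Dct, Tyrp1 and Sox10, which define melanoblasts, were below the level of 10 CPM used for naming genes in each of the 6 libraries. Of 8 tested periderm genes 2 fell (Sfn and Grhl3) and none rose. Without Het 3, 1 rose and none fell, and none fell without Het 1 or KO 2. Of 8 Merkel cell and placode genes 1 fell (Wnt10b). By the fit 7 of the 8 were lower in KO and 1 higher, with a median of -1.50. In 4 of the 8 every KO library was below every Het library, against 9.78% of all genes. An unadjusted p under 0.05 in edgeR was met by 4, and DESeq2 called 4 lower and limma voom 2. The Merkel and placode list summed to 296 to 396 CPM in Het and 70.8 to 121 CPM in KO, and its defining Merkel gene Atoh1 was at 0 in all 6 libraries. The part of placode cells in the fall of Wnt10b and Edaradd was not tested.

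The lists that follow each had 1 called gene or none. Ddx58, a sensor of viral RNA, went from 34 ± 10.8 to 104 ± 28.6 CPM (1.61 ± 0.31, adjusted p = 0.011; lost without Het 2 or KO 3, with adjusted p up to 0.064), the sole member to pass of 22 interferon-stimulated genes. The median of that list was 1.0. Of the 22 genes 8 had an unadjusted p under 0.05, against 1494 of all 13052 genes tested. In 8 of the 22 every KO library was above every Het library, against 10.3% of all genes. DESeq2 called 5 of the 22 higher and limma voom 3, and edgeR none without Het 2 or KO 3. Of 22 glycolysis and hypoxia genes Bnip3 alone passed, from 10.1 ± 4.03 to 40.7 ± 18.3 CPM (1.99 ± 0.43, adjusted p = 0.025; lost without Het 1, Het 3, KO 2 or KO 3, with adjusted p up to 0.10). That list had a median of 0.24, 6 genes at an unadjusted p under 0.05 and 8 with every KO library above every Het library, and DESeq2 called 4 higher and limma voom 1. Of 37 chromatin regulators Hdac9 alone passed, from 0.933 ± 1.17 to 31.2 ± 21.2 CPM (4.93 ± 1.06, adjusted p = 0.025; 6.58 without Het 2; lost without Het 3, KO 1 or KO 2, with adjusted p up to 0.17), with a list median of 0.03. In that list 9 genes had an unadjusted p under 0.05, DESeq2 called 1 higher and 2 lower, and limma voom 1 lower. Without Het 3, 2 chromatin regulators fell and none rose. None passed of 18 immediate early genes, 17 anterior and 18 posterior Hox-list genes or 12 early embryonic regulators in edgeR. At an unadjusted p under 0.05 there were 2 early embryonic regulators and 1 gene in each of the other lists, and DESeq2 and limma voom each called 1 posterior Hox gene and 1 early embryonic regulator lower and none elsewhere. Jun, an immediate early gene of tissue handling, was at 70.7, 164 and 302 CPM in Het and 212, 124 and 104 in KO (-0.29 ± 0.49, adjusted p = 0.92), and the immediate early list summed to 510.0 to 1839.5 CPM in Het and 753 to 1622 CPM in KO.

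Called genes were long genes more often than tested genes in general. Of the 109 genes that rose 55 (50.5%) spanned at least 100 kb from start to end, of 177 that fell with a position 54 (30.5%), and of all 13002 tested genes with a position 14.7%. The median length was 100 kb for genes that rose, 49.9 kb for genes that fell and 24.6 kb for all. The median log2 fold change was 0.07 in genes under 10 kb, 0.01 from 10 to 30 kb, -0.01 from 30 to 100 kb and 0.07 at 100 kb or more. Long genes also had higher levels (median 47.4 CPM at 100 kb and above, 18.6 CPM under 10 kb). Among genes with at least 50 CPM in 1 group, 5.60% of those of at least 100 kb rose and 5.17% fell, against 1.74% and 2.76% of those under 10 kb.

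**Figure D5:**
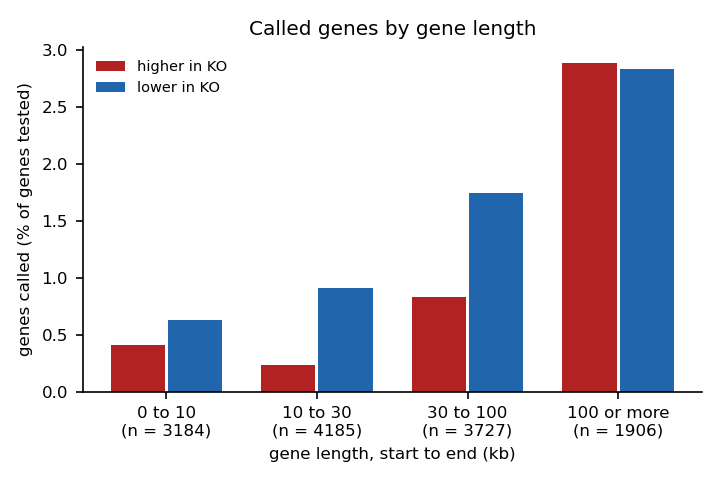
Share of tested genes that rose (red) or fell (blue) in KO, in percent, by gene length from start to end in kb, with the number of genes in each length class. At 100 kb or more 2.89% rose and 2.83% fell, against 0.408% and 0.628% under 10 kb.

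Some called genes were neighbours in the RefSeq annotation, with no other tested gene starting between them. Of 12 such pairs, 8 moved in the same direction and 4 in opposite directions. How many such pairs, or how many in the same direction, genes called at random would give was not worked out. The pairs are therefore given as a description only. Trp63 (chromosome 16, 25683763 to 25892088, GRCm38.p6) and Leprel1 (25959284 to 26105813), a collagen-modifying enzyme gene 67.2 kb away, both fell. Leprel1 was at 39.7, 51.5 and 25.9 CPM in Het and 2.44, 6.42 and 0 in KO (-3.64 ± 0.83, adjusted p = 0.04; -4.82 without KO 2; lost without Het 1, Het 2 or KO 1, with adjusted p up to 0.21). Sema3d and Sema3a, 536 kb apart on chromosome 5, both rose, as did Rfx3 and Glis3, 244 kb apart on chromosome 19. Pvrl2 and Bcam, 6.57 kb apart on chromosome 7, moved in opposite directions: Bcam, a laminin receptor gene, fell from 475 ± 18.3 to 245 ± 23.1 CPM (-0.96 ± 0.13, adjusted p = 9.2e-04).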

How the data were processed

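RNA was measured in sorted E13 epidermal cells, 3 Het and 3 KO libraries. For each library the authors deposited raw counts of reads by gene symbol. Summary lines below the genes were left out of totals and tests and took 48.9% to 62.6% of the entries in the 6 files. HTSeq, Bowtie2, TopHat2 and the genome build mm10 are named in the submitters' processing notes. Versions, roles and the strand setting of the counting are not given in the sources used here. Libraries were grouped by their labels. The members and gene lists were chosen with earlier results of these data known.

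Testing was by edgeR 4.0.16 under R 4.3.3 (robust quasi-likelihood, TMM, filterByExpr) on the counts of the 9 epidermal libraries, E9 Het included so that all groups share 1 estimate of spread (6 residual degrees of freedom, common biological coefficient of variation 0.571), with Benjamini-Hochberg adjusted p under 0.05 over 13052 genes. Standard errors were taken as the log2 fold change, without its sign, divided by the root of the F statistic. Levels are CPM on TMM-scaled totals, mean ± SD of 3 libraries. Gene counts per library ran from 3373819 to 7777808. Replicates differed by more than sampling noise (chi-square per degree of freedom 15.4 to 33.4). Counting intervals are exact, at 95%, and cover counting error only, since PCR copies are not independent molecules. Of the 23432 symbols 21570 matched RefSeq (GRCm38.p6) by symbol and 1687 by synonym.

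Genes named are Trp63, Krt5, Col17a1, Sema3a and Mest, the 15 higher and 15 lower genes with the smallest p, called members of the gene lists, other called genes gathered by kind with at least 10 CPM in 1 group, and the best known or highest uncalled list members. Some genes that this choice would name are not reported here. Alternatives were DESeq2 1.42.0, limma voom 3.58.1 with quality weights, RLE size factors, raw totals, other filters, the 6 libraries alone, a replicate block and leaving out libraries. The procedure was tested on simulated data. Chromatin samples of the study were not analysed here.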

Additional observations from a re-analysis of the deposited data

How the results depend on the processing

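Among the 287 called genes none changed sign under any alternative run. The count was 243 with the 6 libraries alone, 303 with RLE size factors, 293 with raw library totals, 404 with no filter on low counts, 295 when a group mean of 5 CPM was required and 294 without Rn45s and Lars2. DESeq2 called 824 genes (364 higher, 460 lower, all 287 among them), and limma voom with quality weights 635 (265 higher, 370 lower), with 279 of the 287. With no filter 168 were higher. Leaving out 1 library in turn gave 182 to 348 calls, 59 to 178 higher and 121 to 170 lower. The fewest calls came without KO replicate 1, the fewest higher genes without KO replicate 3 and the most without Het replicate 3, where 178 higher genes stood against 170 lower ones. Without the library with fewest genes detected in each group (Het replicate 1 and KO replicate 3), 225 genes were called, 69 of them higher. The cause of these shifts was not tested, and every fit that leaves out libraries also has fewer samples.

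The labels do not say that a replicate number links a Het to a KO library, so the numbers were not taken to pair libraries. Deviations from the group means correlated across genes at r = -0.05, 0.23 and -0.05 for the same numbers. For unlike numbers r ran from -0.15 to 0.13, so the value of Het 2 with KO 2 was the largest. Deviations within a group of 3 sum to 0, so these values cannot show that no libraries were paired. A fit of the 6 libraries with a replicate block called 186 genes, 75 higher and 111 lower, with 161 of the 287 among them. Genes reported as not passing the test turned sign in single refits: the log2 difference of Axin2 ran from -0.11 to 0.24, Cdh1 from -0.088 to 0.17, Gjb2 from -0.46 to 0.035 and Jun from -0.67 to 0.33 when 1 library was left out. With 3 libraries a group and this spread, a gene that missed the threshold may still differ, and counts of low genes are the least precise.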

Other observations

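Further kinds of gene were gathered after their values were seen. They are single genes, not counted against a list. Net1, a guanine nucleotide exchange factor gene, was at 446, 414 and 379 CPM in Het and 142, 153 and 102 in KO (-1.64 ± 0.20, adjusted p = 3.6e-04). Rasa3, a Ras GTPase-activating protein gene, was at 159, 163 and 128 CPM in Het and 53.3, 46.5 and 56.3 in KO (-1.53 ± 0.26, adjusted p = 0.0049). The groups did not overlap in either gene. Arhgap32 fell from 361 ± 29.5 to 194 ± 15.3 CPM (-0.89 ± 0.14, adjusted p = 0.0031). Ajuba, a LIM protein of junctions, fell from 211 ± 39.6 to 80.7 ± 23.9 CPM (-1.39 ± 0.22, adjusted p = 0.0031). Cald1, the caldesmon gene, fell from 418 ± 21.1 to 214 ± 31.6 CPM (-0.97 ± 0.18, adjusted p = 0.0086). Ptpn14, a junctional phosphatase gene, fell from 639.7 ± 14.6 to 309 ± 36.3 CPM (-1.05 ± 0.15, adjusted p = 0.0015). Rising genes of the same kind were Palld, which bundles actin, at 11, 17 and 18.1 CPM in Het and 71.2, 64.7 and 53.5 in KO (2.03 ± 0.32, adjusted p = 0.0031), and Limch1, at 120.1, 88.6 and 217 CPM in Het and 678, 447 and 580.1 in KO (2.0 ± 0.28, adjusted p = 0.0026). Lmo7 rose from 101 ± 17.6 to 241 ± 32 CPM (1.25 ± 0.21, adjusted p = 0.0047).

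No list of nucleolar or polymerase genes was counted, and single lower genes of that kind are given for their values only. Tcof1, the treacle gene of nucleoli, was at 263, 231 and 194 CPM in Het and 100.2, 131 and 114 in KO (-0.99 ± 0.18, adjusted p = 0.007). Polr3g, a subunit gene of polymerase III, was at 114, 67.6 and 60.4 CPM in Het and 17.4, 18.7 and 17.9 in KO (-2.16 ± 0.34, adjusted p = 0.0026). Heatr1 fell from 189.6 ± 15.4 to 99.6 ± 27.1 CPM (-0.93 ± 0.20, adjusted p = 0.024; lost without Het 1, Het 2, KO 2 or KO 3, with adjusted p up to 0.073) and Mybbp1a from 484 ± 108 to 289 ± 34.3 CPM (-0.74 ± 0.17, adjusted p = 0.032; lost without Het 1, Het 2, KO 1, KO 2 or KO 3, with adjusted p up to 0.13). Of membrane transporters, Slco3a1, an organic anion transporter gene, was at 20.2, 23.8 and 30.5 CPM in Het and 94.1, 72.5 and 140.3 in KO (2.04 ± 0.38, adjusted p = 0.0089; lost without KO 3, with adjusted p up to 0.0541). KO 3 was the highest library. Slc12a4, a potassium-chloride cotransporter gene, fell from 154 ± 7.49 to 61.8 ± 9.97 CPM (-1.32 ± 0.21, adjusted p = 0.0031). Slc7a1, an arginine transporter gene, fell from 167 ± 19.6 to 92.5 ± 14.2 CPM (-0.85 ± 0.20, adjusted p = 0.04; lost without Het 1, Het 2, KO 1, KO 2 or KO 3, with adjusted p up to 0.14).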
